A study of Arabidopsis thaliana with 6 samples.

Results

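WRKY proteins are a large family of plant transcription factors named after a conserved amino acid motif, and they bind the W-box element of their target promoters. Many act in immune, salicylic acid, abscisic acid, phosphate and senescence responses. Group I proteins carry a pair of WRKY domains, group II proteins 1 domain with a C2H2 zinc finger (subgroups IIa to IIe), and group III proteins 1 domain with a C2HC finger. PIF1 is a basic helix-loop-helix factor that accumulates in darkness, where it represses light responses, and it binds G-box elements. The 51 WRKY genes described here were given by locus code, out of 27432 protein-coding nuclear genes, and are not the whole family. Of them 10 belong to group I, 33 to group II and 8 to group III, by general knowledge of the family. For each gene, peaks were collected whose position lay inside the gene or within 3000 bp of either end. The set was selected on family membership with the peak positions and fold enrichments of these same lists already known, so all counts below are a description, and no test is given.

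The measurements came from chromatin immunoprecipitation with an anti-Myc antibody on whole Arabidopsis thaliana seedlings, 3 days old and dark-grown. Seeds of all 6 libraries first received white light for 3 h at 21 °C to start germination, and the seedlings then stayed in darkness at that temperature until harvest. There were 3 libraries of transgenic seedlings overexpressing Myc-tagged PIF1 (labelled PIF1, P1M in the design text) and 3 of untagged wild-type seedlings as background. The promoter of the transgene and the number of lines are not given in the sources used here, and binding by an overexpressed protein need not equal that of the native one. Each of the 3 deposited peak lists paired a PIF1 library with its like-numbered wild-type library, and all fold enrichments below are the authors' values for single peaks.

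The 3 lists differed in depth and in length. The PIF1 libraries held 5721184 to 14209334 tags after removal of excess duplicates and the wild-type libraries 6134032 to 17323572. Lists 1, 2 and 3 held 4578, 12776 and 7678 peaks with median fold enrichments of 2.71, 5.29 and 3.87. The caller's false discovery rate (FDR), from exchanging the PIF1 and wild-type libraries, was 100% for every peak of list 1 and for 82.5% of those of list 3, so values are compared by rank within a list. A percentile below is the rank of a peak's fold enrichment within its own list. Peaks of different lists that overlapped were merged, and a region with peaks of at least 2 lists is called a consensus region.

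PIF1-Myc peaks lay at most of the WRKY genes, and shared ones at 31 of 51. A peak of at least 1 list lay at 44 of the 51 genes (86.3%), against 73.3% of all protein-coding genes. A consensus region lay at 31 (60.8%), against 29.9% of all genes, and a region of all 3 lists at 14 (27.5%), against 9.51%. In the single lists 23, 42 and 36 of the 51 genes had a peak (45.1%, 82.4% and 70.6%), while all genes had one at 26.3%, 59.5% and 41.6%. The WRKY share was the higher of the pair in each of the 3 lists, with a mean of 66.0% ± 19.0 (SD, n = 3 lists) against 42.5% ± 16.6. The count of 31 fell to 14 without list 2 (27.5%, against 10.5% of all genes) and to 16 without list 3 (31.4%, against 13.0%), and was 30 without list 1 (58.8%, against 26.1%).

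WRKY genes also stood in wider spaces than other genes. The gaps to the neighbouring protein-coding genes on both sides summed to a median of 3898 bp at the members and 1834 bp over all genes, and 37 of the 51 members lay above the latter. Among all genes, a consensus region was found at 24.3%, 28.5%, 33.0% and 33.9% in 4 equal bins from the smallest gaps to the largest. Of the members in these bins, 2 of 3, 4 of 11, 9 of 13 and 16 of 24 had one. The share was higher at the members in each bin, but the bins with the smaller gaps held only 3 and 11 of them. The bin with the largest gaps has no upper limit, so members and other genes are not matched in it. The part of spacing in the result was not tested.

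**Figure D1:**
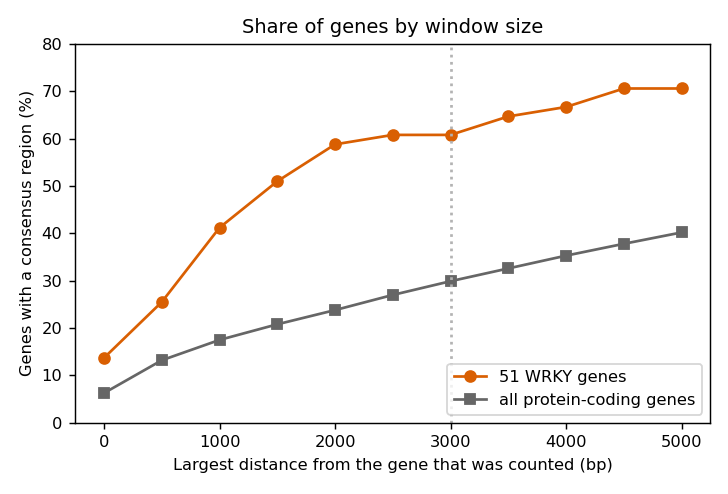
Share of genes with a consensus region (vertical axis, percent) against the largest distance from the gene that was counted (horizontal axis, bp), for the 51 WRKY genes (circles) and all 27432 protein-coding nuclear genes (squares), with a dotted line at 3000 bp. The WRKY share rose from 13.7% inside genes to 58.8% at 2000 bp and then levelled to 60.8% at 3000 bp, while that of all genes went from 6.27% to 23.8% and 29.9%.

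The shared regions lay mostly outside the WRKY genes. The 31 genes had 39 consensus regions, 24 genes with 1, 6 with 2 (WRKY6, WRKY7, WRKY12, WRKY17, WRKY21 and WRKY38) and WRKY65 with 3. Of the 39, 7 lay inside the gene, 16 up to 1000 bp outside, 13 between 1000 and 2000 bp and 3 between 2000 and 3000 bp. The last class made up 7.69% of WRKY regions and 24.9% of all 10079 pairs of a gene and a consensus region in the genome. The first class made up 17.9% and 17.6%. No strand was used, so upstream and downstream of a gene were not told apart. Summits of the lists within a region lay a median of 50 bp apart, and within 300 bp in 29 of the 39 regions.

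**Figure D2:**
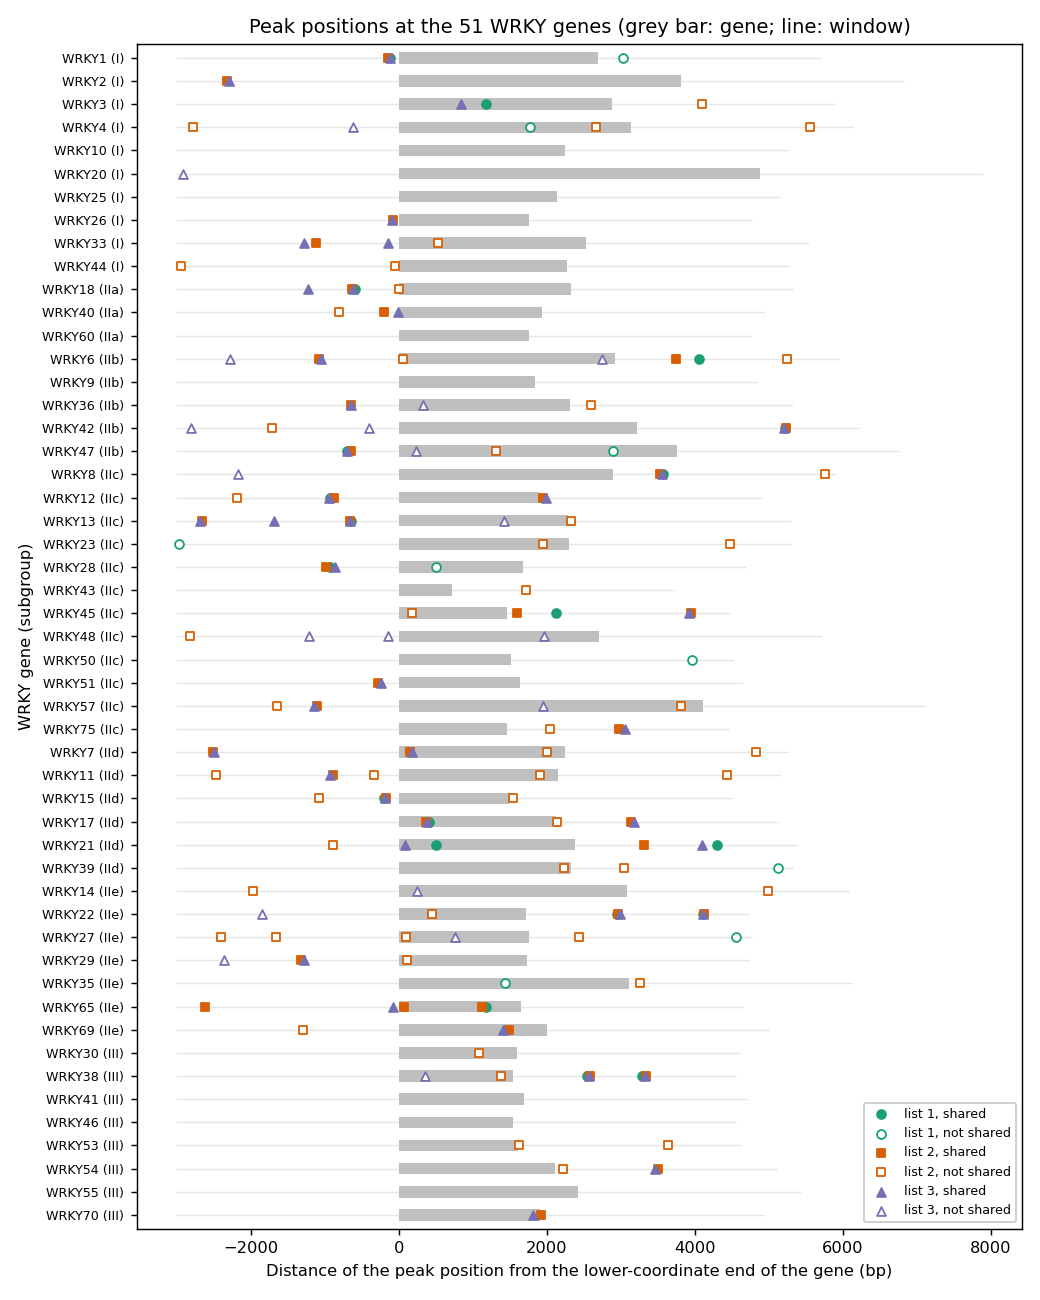
Peak positions at each of the 51 WRKY genes (rows, by subgroup) as the distance in bp from the lower-coordinate end of the gene, with the gene as a grey bar, the window as a thin line and the lists as circles (1), squares (2) and triangles (3). Filled marks lie in regions with peaks of at least 2 lists. Groups of filled marks stand beside 31 genes, as below WRKY13 and above WRKY22, and 7 rows have no mark.

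Single peaks at WRKY genes were of ordinary strength for these lists, while their regions of all 3 lists ranked below such regions as a whole. The 181 peaks in the windows (29, 92 and 60 in lists 1, 2 and 3) had median fold enrichments of 2.82, 5.51 and 4.07, next to 2.71, 5.29 and 3.87 over whole lists. Averaged over the lists that held them, the percentiles of WRKY regions found in all 3 lists had a median of 66.5, below the 84.0 over all 1390 such regions. Of the 39 consensus regions, those at WRKY22, WRKY13 and WRKY42 had a mean percentile of at least 90, as did unshared peaks at WRKY12 (list 2) and WRKY48 (7.47 in list 3, percentile 92.1). With peaks of a score of at least 100 alone, 20 of the 51 genes had a consensus region (39.2%, against 16.3% of all genes), while a minimum of 5-fold left 14 (27.5%, against 9.85%).

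Group II genes carried peaks most often and group III genes least often. A consensus region lay at 23 of 33 group II genes (69.7%), 5 of 10 group I genes (50.0%) and 3 of 8 group III genes (37.5%). Of all genes 29.9% had one. A region of all 3 lists lay at 12, 1 and 1 genes of these groups, against 9.51% of all genes. The counts of 1 in 10 genes of group I and 1 in 8 of group III are near that share. The share with any peak in lists 1, 2 and 3 was 57.6%, 90.9% and 78.8% in group II, 30%, 70% and 70% in group I, and 12.5%, 62.5% and 37.5% in group III. Group II exceeded group III in each list, by 45.1, 28.4 and 41.3 percentage points (mean 38.3 ± 8.74, SD, n = 3 lists). It exceeded group I by 27.6, 20.9 and 8.79 points (19.1 ± 9.52). The lists cover the same genes, so these SDs hold no variation between genes and do not test the groups. Group III lay below the share of all genes in lists 1 and 3 and above it in list 2.

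These counts rest on few genes, which are not replicates of their group, and they change with the lists. Without lists 2 and 3 in turn, the consensus counts were 11 and 14 in group II. They were 2 and 1 in group I, and 1 and 1 in group III. In these settings 10.5% and 13.0% of all genes had a consensus region, near the counts of 1 in 8 genes of group III and 1 in 10 of group I. Spacing moved with the groups too, with median summed gaps of 1396 bp in group I, 5145 bp in group II and 3648 bp in group III. Among genes in the bin with the widest gaps, 13 of 18 in group II, 0 of 2 in group I and 3 of 4 in group III had a consensus region. Among the others these were 10 of 15, 5 of 8 and 0 of 4. Of all genes, 33.9% had one in the bin with the widest gaps and 24.3% to 33.0% in the other bins. Within group II the counts were 2 of 3 (IIa), 4 of 5 (IIb), 8 of 12 (IIc), 5 of 6 (IId) and 4 of 7 (IIe).

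**Figure D3:**
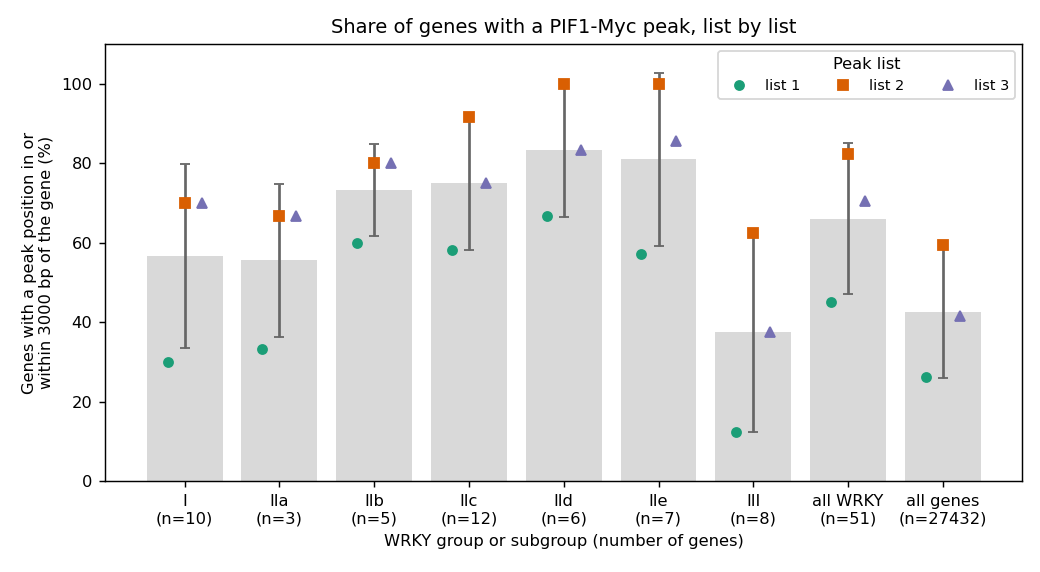
Share of genes with a peak position inside or within 3000 bp of the gene (percent) in each WRKY group or subgroup, in all 51 members and in all protein-coding genes. Grey bars are the mean over the 3 lists with the SD, and the marks are lists 1 (circles), 2 (squares) and 3 (triangles). Subgroups IId and IIe reached 100% in list 2, and group III had the lowest mean, 37.5%. All protein-coding genes stood at 59.5% in list 2, with a mean of 42.5%.

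By mean percentile the strongest WRKY region was at WRKY22 (AT4G01250, IIe; 99.4), which acts below the flagellin receptor FLS2 in a MAP kinase cascade. It spanned chromosome 4, 524972 to 527361 (TAIR10), and held a pair of summits that were each seen in all 3 lists. The farther summit, 2391 to 2399 bp from the gene, was enriched 8.55-fold in list 1, 26.49-fold in list 2 and 27.93-fold in list 3 (percentiles 99.1, 99.2 and 99.8). The nearer, 1221 to 1268 bp away, had 3.57, 11.24 and 7.54. The farther summit was closer to another gene, AT4G01245, at 951 bp. WRKY29 (AT4G23550, IIe), which acts with WRKY22 in the same cascade, had a weaker region at chromosome 4, 12290065 to 12290743. It lay 1303 bp away and was held by lists 2 and 3 (8.0 and 4.97).

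WRKY13 (AT4G39410, IIc), linked to stem lignin and flowering time, had the second strongest region by mean percentile (99.2) and the highest single fold enrichment of any member. Its strongest peaks lay 648, 654 and 667 bp from the gene in lists 1, 2 and 3, with fold enrichments of 7.52, 38.93 and 17.98 and 952, 618 and 187 tags of the PIF1 library. The FDR of these peaks was 100%, 0% and 10.09%. Summits about 2663 to 2683 bp from WRKY13 followed in lists 2 and 3 (14.56 and 7.59), and the chained region spanned chromosome 4, 18327738 to 18332485. The main summit was nearer to WRKY13 than to any other protein-coding gene, with PLS 2253 bp away. The mean position of the whole region, in contrast, was closer to PLS (1159 bp), a gene for a small peptide in root growth, and lay 2027 bp from the brassinosteroid receptor gene BRI1. WRKY12 (AT2G44745, IIc), which acts in pith secondary walls and in flowering, had a region of all 3 lists 920 bp away (3.30, 5.56 and 4.03), at chromosome 2, 18445910 to 18446573. A second region 72 bp beyond its other end was held by lists 2 and 3 (8.28 and 4.71). Its most enriched peak was an unshared one of list 2, 16.63-fold (percentile 96.7, FDR 3.23%), 2190 bp away and closer to CYCP4;1 (1608 bp).

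WRKY42 (AT4G04450, IIb) represses the phosphate exporter gene PHO1, as does WRKY6, and its region came next by mean percentile (95.4). At chromosome 4, 2222964 to 2223871, the summits of the 3 lists lay within 27 bp of each other, 1983 to 2010 bp from WRKY42. The fold enrichments were 5.13, 21.33 and 8.91, all above percentile 90 of their list (percentiles 92.9, 98.4 and 95). AT4G04460 lay nearer, at 1152 bp from the list 2 summit. WRKY6 (AT1G62300, IIb), which also acts in senescence, had regions on both sides. That at 1066 bp was held by lists 2 and 3 (11.51 and 5.21), and that at 974 bp by lists 1 and 2 (2.89 and 6.11).

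The other IIb genes followed. WRKY47 (AT4G01720) had a region of all 3 lists 686 bp away at chromosome 4, 743729 to 744494, with 4.76, 7.54 and 7.90. No other protein-coding gene lay within 5000 bp of its strongest summit. WRKY36 (AT1G69810), a repressor of the light-signalling gene HY5, had a region 644 bp away in lists 2 and 3 (5.71 and 4.11), and both summits fell on the same base. That region lay inside the neighbouring gene AT1G69800.

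In subgroup IIa, whose 3 members act together in pathogen and abscisic acid responses, WRKY18 (AT4G31800) stood out. Its region at chromosome 4, 15381202 to 15382474, was enriched 4.68-fold, 8.11-fold and 7.90-fold in lists 1, 2 and 3, with the strongest summits 599 to 631 bp from the gene. WRKY40 (AT1G80840) had a weaker one 104 bp away in lists 2 and 3 (3.45 and 4.54). WRKY60 (AT2G25000) had no peak in any list inside or within 3000 bp. The 3 relatives thus covered the whole range of support from 3 lists to none.

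Besides WRKY12 and WRKY13, subgroup IIc held regions of all 3 lists at WRKY8, WRKY28 and WRKY45. WRKY8 (AT5G46350), which acts in salt and virus responses, had 3.73, 6.72 and 6.72 at chromosome 5, 18804396 to 18805029, 659 bp away. WRKY28 (AT4G18170), an activator of the salicylic acid synthesis gene ICS1, had 2.62, 3.03 and 4.81 at chromosome 4, 10059959 to 10060815, 923 bp away. The list 2 peak of WRKY28, at percentile 1.22, was among the weakest of its list.

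The support of WRKY45 (AT3G01970), a regulator of phosphate uptake, came from chaining. The list 1 peak lay 665 bp and the list 3 peak 2464 bp from the gene, with a list 2 peak near each (134 and 2485 bp), and fold enrichments of 2.42, 2.69, 5.45 and 4.51. The region was no longer one of all 3 lists where the overlap had to cover 50% of the shorter peak. Its mean position and its strongest summit both lay inside the neighbour AT3G01980. WRKY75 (AT5G13080), also of phosphate responses, had a region 1545 bp away in lists 2 and 3 (7.05 and 4.89), closer to AT5G13090. Lists 2 and 3 also shared regions at WRKY51 (AT5G64810; 7.69 and 5.95, 260 bp away), which acts where salicylic acid dampens jasmonate signalling, and at the drought-tolerance gene WRKY57 (AT1G69310; 8.95 and 5.67, 1124 bp away). At WRKY57 the gene PDCB4 lay nearer, 447 bp from the strongest summit.

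**Figure D4:**
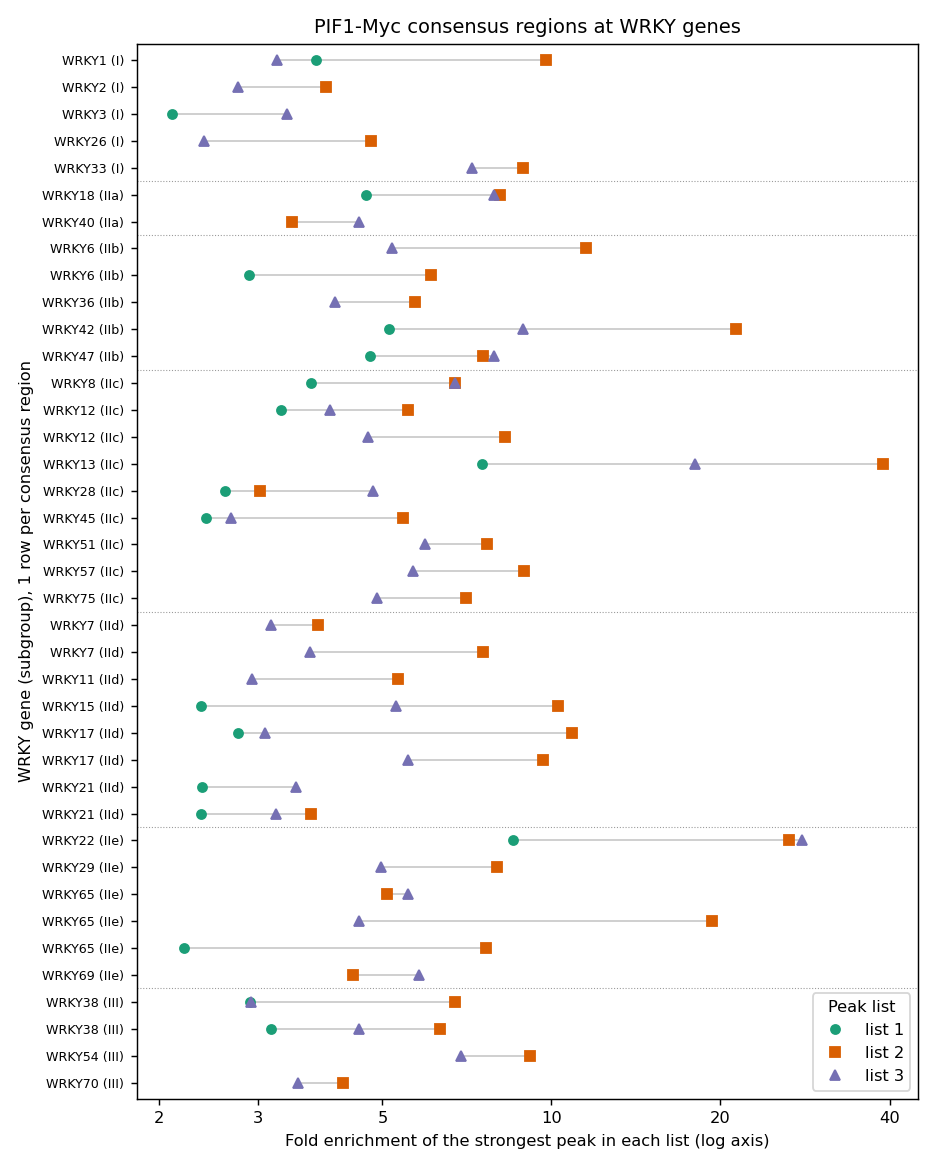
Fold enrichment of the strongest peak in each list (horizontal log axis) for the 39 consensus regions of 31 WRKY genes (rows, by subgroup), with lists 1, 2 and 3 as circles, squares and triangles joined by a grey line. WRKY13 and WRKY22 reach furthest to the right, up to 38.93 and 27.93, and 20 of the 39 rows carry lists 2 and 3 alone.

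Subgroup IId, whose proteins carry a calmodulin-binding segment, had peaks at all 6 members, as IIc and IIe had at all of theirs. Of all genes, 73.3% had a peak of at least 1 list and 29.9% a consensus region. The share of IId genes with a consensus region was the highest, at 5 of 6 next to 4 of 5 in IIb. With peaks of a score of at least 100 alone, the counts were 2 in IId and 4 in IIb, against 16.3% of all genes. WRKY11 (AT4G31550) and WRKY17 (AT2G24570) are close relatives that limit basal resistance to bacteria. WRKY17 had a region of all 3 lists inside the gene at chromosome 2, 10437508 to 10438450 (2.76, 10.88 and 3.09) and a further one 1040 bp away in lists 2 and 3 (9.65 and 5.55). WRKY11 had 1 region, 908 bp away, in lists 2 and 3 (5.32 and 2.93). WRKY15 (AT2G23320), which acts in oxidative and salt stress, had a region with summits within 25 bp, 183 bp from the gene at chromosome 2, 9924189 to 9925709, with 2.38, 10.29 and 5.28. It lay nearer to WRKY15 than to any other protein-coding gene.

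WRKY21 and WRKY7 also had a pair of consensus regions each. WRKY21 (AT2G30590) had a region of lists 1 and 3 inside the gene (2.39 and 3.51) and a region of all 3 lists beside it (2.38, 3.73 and 3.23), in which the summits spread over 985 bp and lay inside the neighbour AT2G30600 by mean position. WRKY7 (AT4G24240) had regions in lists 2 and 3 inside the gene (7.55 and 3.72) and 2509 bp away (3.84 and 3.17). The region farther away was nearer to AT4G24231 (5 bp) and ACBP3 (163 bp). WRKY39 (AT3G04670) had 3 peaks, none of them shared.

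In subgroup IIe, WRKY65 (AT1G29280) had the most consensus regions of any member, 3, each held by only 2 lists. That at its end, chromosome 1, 10235913 to 10236621, had 19.33 in list 2 but 4.54 in list 3 and was not in list 1. The other two had 2.22 and 7.65 (lists 1 and 2, inside the gene) and 5.09 and 5.55 (lists 2 and 3, with the list 3 summit 3130 bp away and so just outside the window). WRKY69 (AT3G58710) had a region inside the gene in lists 2 and 3 (4.44 and 5.80). WRKY14, WRKY27 and WRKY35 had none. WRKY27 had 6 peaks from all 3 lists and no pair of them overlapped.

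Group I genes had a consensus region at 5 of 10 (against 29.9% of all genes), and 1 of these was held by all 3 lists (against 9.51%). This was WRKY1 (AT2G04880, ZAP1 in the gene table), with 3.8, 9.76 and 3.24 at 118 to 147 bp from the gene, chromosome 2, 1717392 to 1718103. WRKY33 (AT2G38470), a regulator of camalexin synthesis and of resistance to Botrytis, had a region in lists 2 and 3 (8.91 and 7.22). The strongest summits of these lists did not coincide, since the list 2 peak lay 1119 bp and the strongest list 3 peak 151 bp from the gene. A weaker list 3 peak (3.76), 1278 bp from the gene, was closer to the list 2 summit. By mean position the region was nearer to AT2G38465 (451 bp) than to WRKY33 (849 bp). WRKY25 and WRKY26, which act with WRKY33 in heat tolerance, differed. WRKY26 (AT5G07100) had a weak region 90 bp away in lists 2 and 3 (4.78 and 2.41), inside the neighbour AT5G07090, and WRKY25 had no peak. WRKY3 (AT2G03340), a gene of resistance to necrotrophs, had a region of lists 1 and 3 inside the gene (2.11 and 3.38), and its relative WRKY4 had 5 unshared peaks from all 3 lists. WRKY2 (AT5G56270), which acts in seed germination, had 3.96 and 2.76 in lists 2 and 3, inside the neighbour AT5G56260.

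Group III had 4 consensus regions at 3 of its 8 genes, next to 5 at 5 of the 10 group I genes. WRKY38 (AT5G22570), which limits basal defence, had a pair of regions of all 3 lists on 1 side. That at chromosome 5, 7497805 to 7498265, 1032 bp away, had 2.91, 6.72 and 2.92, and that at 7498548 to 7499409, 1779 bp away, had 3.17, 6.32 and 4.54. No other protein-coding gene lay within 3000 bp of either. WRKY54 (AT2G40750) and WRKY70 (AT3G56400) are relatives that act in salicylic acid responses and restrain senescence. WRKY54 had a region 1376 bp away in lists 2 and 3 (9.17 and 6.89), and WRKY70 one at the end of the gene in the same lists (4.26 and 3.53). WRKY53, a promoter of senescence, had 2 peaks of list 2 alone.

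Members without a consensus region numbered 20. WRKY9 (IIb), WRKY10 (I, which acts in endosperm and seed size), WRKY25 (I), WRKY41, WRKY46 and WRKY55 (III) and WRKY60 (IIa) had no peak inside or within 3000 bp in any list. WRKY4 and WRKY27 had unshared peaks in all 3 lists, and WRKY14, WRKY23, WRKY35, WRKY39 and WRKY48 in 2. WRKY20, WRKY30, WRKY43, WRKY44 (TTG2 in the gene table, a trichome and seed coat regulator), WRKY50 and WRKY53 had peaks of 1 list alone. A missing peak says that none passed the caller's p of 1e-05, not that PIF1 was absent.

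The limit of 3000 bp decided some of these. With a window of 5000 bp, WRKY4, WRKY25, WRKY27, WRKY35 and WRKY55 gained a consensus region, and 40.2% of all genes had one. The nearest of these regions lay 3378 bp from WRKY27, in lists 1 and 2 (3.78 and 10.02). Just inside 3000 bp lay single-list peaks at WRKY20 (2912 bp, 2.68 in list 3), WRKY44 (2938 bp, 6.05 in list 2) and WRKY23 (2976 bp, 1.99 in list 1). The WRKY65 consensus region at 2877 bp also lay just inside. Just outside, regions of all 3 lists lay 3169 bp from WRKY69 (3.79, 10.54 and 7.67) and 3434 bp from WRKY4 (5.41, 20.2 and 13.44). Further regions of all 3 lists lay 4354 bp from WRKY25 (6.44, 18.34 and 12.78) and 4410 bp from WRKY26 (4.51, 23.6 and 11.76). In lists 2 and 3 these 4 regions were more enriched than those inside the windows of WRKY26 and WRKY69, which had a consensus region already. The summed gaps to neighbouring genes were 1806 bp at WRKY69, 1347 bp at WRKY4, 398 bp at WRKY25 and 89 bp at WRKY26. Another protein-coding gene thus lay nearer to each of these 4 regions than the WRKY gene did.

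The lists contributed unequally to the 39 regions. All 3 lists held 15, lists 2 and 3 alone held 20, lists 1 and 2 held 2, and lists 1 and 3 held 2. Among the 15, the fold enrichment was lowest in list 1 in 14, the list with the lowest median over all peaks. Of the WRKY peaks, none of list 1 or list 3 and 10 of the 92 of list 2 had an FDR of 5% or less. For 13 of the 39 regions another protein-coding gene lay nearer to the mean position, and for 11 nearer to the strongest summit. Counting only the nearest gene, 21 of 51 members had a consensus region (41.2%), against 15.0% of all genes.

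Genes that act with WRKY factors were counted in the same way. Of 33 listed genes, 12 had a consensus region (36.4%, against 29.9% of all genes) and 1 a region of all 3 lists (3.03%, against 9.51%), both shares near or below those of all genes. By role these were 2 of 3 receptors, 3 of 12 kinases, 2 of 6 protein partners, 3 of 5 salicylic acid genes and 2 of 7 targets. FRK1, a flagellin-induced kinase gene used as a marker of immune signalling, had 9.05 and 7.73 in lists 2 and 3, 1960 bp away. Of genes for VQ-motif partners of WRKY proteins, IKU1 had 16.2 and 3.67 and SIB2 8.03 and 4.08 in lists 2 and 3. The lipase-like immune regulators PAD4 and EDS1 had 8.80 and 3.89, and 10.76 and 3.57, in the same lists. CYP71A13, for a camalexin synthesis enzyme, had 2.99 and 5.61 in lists 1 and 2, 2982 bp away and so just inside the window. The region of all 3 lists lay inside MPK6, a kinase gene (2.88, 6.64 and 3.77), which is named here after its values were seen.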

How the data were processed

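The 6 libraries were grouped by their titles as 3 PIF1 and 3 wild-type. Per the labels' protocols, DNA of 4 immunoprecipitations of 2 biological replicates went into each library. Whether libraries share seedlings is not stated, so the spread between lists may be partly technical. Build TAIR10 and the tools MACS 1.4.1, Bowtie 0.12.7 and CASAVA 1.8.0 are named in the submitters' processing notes. Per the file headers, peaks were called per PIF1 library against 1 wild-type library, with a p cutoff of 1e-05 and scaling of the smaller data set. The deposited tag count is the unscaled number of PIF1 tags in a peak. The deposited score is 10 times the negative log10 of the caller's p. The deposited fold enrichment is a ratio to the local wild-type background. The deposited FDR is a percent from swapping PIF1 and wild type.

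A peak's position was its start plus summit minus 1. Overlaps of 1 bp or more joined peaks into a region, whose position was the mean over its summits. Distances, symbols and neighbours came from a RefSeq gene table of TAIR10.1, without strand. Gene coordinates are not given, because TAIR10.1 is another build name. All 51 members matched by locus code, 49 under the symbol used here. WRKY subgroups and the 33 related genes were written from general knowledge. The members, lists and alternatives were chosen with earlier results of these data known. Full values were given for the 12 members with a region of all 3 lists and the highest mean percentile; all other members are named with fewer values. The planned promoter motif counts were not analysed here. Python 3.11.15, pandas 2.3.3 and numpy 2.4.6 were used, and the merging and window steps were tested on simulated data. No interval is given for shares of genes, which are not independent counts, and tags from PCR are not independent molecules.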

Additional observations from a re-analysis of the deposited data

How the results depend on the processing

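The count of 31 WRKY genes with a consensus region was 14 to 30 with 1 list left out, 20 with peaks of a score of at least 100 and 14 with peaks of at least 5-fold. The 14 genes with a region of all 3 lists became 8 with a window of 1000 bp, 5 with the score filter, 3 with the fold filter (WRKY13, WRKY22 and WRKY42) and 9 counting only the nearest gene, where all genes stood at 5.03%, 4.95%, 2.07% and 4.64%. Group I, with 5 genes, had 3 with the score filter, 1 with the fold filter and 2 counting only the nearest gene, against 16.3%, 9.85% and 15.0% of all genes, and 1 to 4 with 1 list left out. The counts with the fold filter and with the nearest gene only, out of 10 genes, are near the share of all genes. Group II, with 23, had 12 with the fold filter, against 9.85% of all genes, and 11 to 23 with 1 list left out. With 1 list left out, 10.5% to 26.1% of all genes had a consensus region. Group III, with 3, had 1 with a window of 1000 bp, 1 with the score filter, 1 with the fold filter, against 17.5%, 16.3% and 9.85% of all genes, and 1 to 3 with 1 list left out. These counts of 1 in 8 genes (12.5%) are near or below the share of all genes. The count of 44 genes with a peak in at least 1 list was 35 with the fold filter (40.8% of all genes) to 47 with a window of 5000 bp (85.0% of all genes) over its 8 alternatives. Windows of 2000 and 5000 bp gave 30 and 36 genes with a consensus region (23.8% and 40.2% of all genes), and an overlap of 50% of the shorter peak or any bp of the region in the window gave 31 (29.0% and 32.7% of all genes). Each filter leaves fewer peaks by construction; no other cause was tested. No paired analysis was possible because each peak list already combines 1 PIF1 and 1 wild-type library and no result comes from a test. Of the PIF1 tags, 13%, 70% and 66% were redundant in lists 1, 2 and 3, and of the wild-type tags 24%, 61% and 15%. The PIF1 and wild-type libraries thus differed most in list 3. The part of depth and of redundancy in the results was not tested. List 1, the deepest after filtering, had the fewest peaks.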
